A study of Mus musculus with 79 samples.

Results

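H3K36me3, trimethylation of lysine 36 of histone H3, was compared between the hypothalamus of Dnmt3a Δ/D329A and +/+ mice in 6 ChIP-seq libraries, 3 per genotype, out of 79 libraries in the series. All animals were on a C57BL/6 background and aged 14 weeks, and each library came from 1 animal. The labels give no sex, and the study describes the hypothalamus used for ChIP-seq as male. The D329A allele carries a point mutation in the PWWP domain of the DNA methyltransferase DNMT3A and was inherited from the father. The Δ allele lacks exon 18 of Dnmt3a after recombination by Zp3-Cre, which is active in the oocyte, and was inherited from the mother, so the only functional DNMT3A in Δ/D329A animals, in every cell type, was the D329A form. The comparison covered 2462755 autosomal tiles of 2 kb that start every 1 kb, out of 2725549 tiles in the table, and the bodies of 25208 genes, from start to end, out of 25965 genes of the RNA-seq table. Of these, 2167295 tiles and 24251 gene bodies were above the minimum level and were tested. A further 779 canyons, the wide regions of very low DNA methylation in +/+ hypothalamus listed by the study, were compared in the same way. Levels are given as reads per tile relative to all mapped reads of a library (RPM), averaged over the tiles centred in a gene body or canyon, and differences are on the log2(RPM + 0.1) scale.

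H3K36me3 is laid down by SETD2, which travels with elongating RNA polymerase II, so the mark covers the bodies of transcribed genes and increases towards their 3′ ends. NSD1, NSD2 (Whsc1) and NSD3 (Whsc1l1) produce the dimethylated form, which lies more broadly. The PWWP domain of DNMT3A binds both forms and is one of the means by which DNA methylation is directed to chromatin. Polycomb targets, marked with H3K27me3, and CpG-rich canyons over developmental genes normally carry little H3K36me3.

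Windows of 200 bases show DNA from regions in which the genotypes differed. They are the centres of the 3 canyons with the smallest p, and of the called tile in Gria2, in RefSeq's GRCm38.p6 sequence on the plus strand, with CG dinucleotides in capitals. The called tiles in the Tbx15 and Hand2 canyons lie outside the printed bases. In all regions but Gria2 the H3K36me3 level was higher in Δ/D329A. The first lies in an intron of Nr5a2 (chr1:136948137-136948336), in a canyon with 163 CG dinucleotides, 29.1 per kb.
Nr5a2: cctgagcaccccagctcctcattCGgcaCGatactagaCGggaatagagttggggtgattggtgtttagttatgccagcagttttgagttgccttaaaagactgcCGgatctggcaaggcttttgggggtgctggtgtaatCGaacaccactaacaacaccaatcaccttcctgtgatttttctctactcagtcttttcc
The second lies in an intron of Tbx15 (chr3:99254251-99254450), in a canyon with 152 CG dinucleotides.
Tbx15: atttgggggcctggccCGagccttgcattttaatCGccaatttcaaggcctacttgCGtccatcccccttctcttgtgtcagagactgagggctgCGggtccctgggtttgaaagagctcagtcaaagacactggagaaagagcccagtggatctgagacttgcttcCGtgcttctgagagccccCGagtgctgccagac
The third overlaps the genes 5033428I22Rik and Gm34030 and an annotated exon, in a canyon 6466 bp from Hand2 (chr8:57333844-57334043) with 146 CG dinucleotides.
Hand2: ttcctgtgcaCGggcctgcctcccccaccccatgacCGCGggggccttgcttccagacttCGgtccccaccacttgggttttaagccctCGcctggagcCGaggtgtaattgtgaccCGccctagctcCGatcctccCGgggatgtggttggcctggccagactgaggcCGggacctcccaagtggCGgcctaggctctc
The last lies in an intron of Gria2 (chr3:80697901-80698100), in a tile with 13 CG dinucleotides, and here the level was lower in Δ/D329A.
Gria2: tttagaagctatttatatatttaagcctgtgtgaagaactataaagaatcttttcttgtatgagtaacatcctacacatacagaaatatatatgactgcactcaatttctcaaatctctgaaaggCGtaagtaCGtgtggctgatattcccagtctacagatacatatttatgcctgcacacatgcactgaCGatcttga

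The 6 libraries held 19056381 to 22850001 mapped reads, a median of 10 to 12 reads per tile. The mark followed expression in all of them, as the label of the libraries requires. Among gene bodies ordered by the mean +/+ RNA level, the median H3K36me3 level of the top quintile lay 1.39 to 1.67 above that of the bottom quintile on the log2 scale, whereas in the 6 input libraries, which are the same chromatin without antibody, this distance was between -0.03 and 0.00. Among the 10 genes of 5 kb or longer with the highest H3K36me3 level were Sfi1, Hjurp, AU041133 and 7 zinc finger genes (Zfp110, Zfp606, Zfp68, Zfp2, Zfp37, Zfp105 and Zfp72). In Sfi1 input was 22.2 to 26.6 RPM, more than the H3K36me3 level in every library, and in Hjurp it was 4.59 to 5.33 RPM, whereas in the other 8 genes input was 0.701 to 1.18 RPM. The spread over 3 animals against 3 cannot give an exact permutation p under 0.1, and this is the value reached by each library-level comparison below in which the genotypes do not overlap.

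H3K36me3 followed expression less steeply in Δ/D329A hypothalamus. The median level of gene bodies in the top quintile of expression minus that in the bottom quintile was 1.64, 1.61 and 1.67 in the +/+ libraries and 1.39, 1.52 and 1.39 in the Δ/D329A libraries, on the log2 scale. Every Δ/D329A library lay below every +/+ library. The means were 1.64 ± 0.029 and 1.43 ± 0.074 (SD, n = 3 each), a difference of -0.21 (exact permutation test, two-sided, p = 0.1, the smallest possible). In the input libraries the same measure differed by -0.001 (exact permutation test, p = 1).

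Both ends of the expression range contributed to the smaller distance. In the bottom quintile (5042 genes) the median log2 level was -0.94 on average in +/+ and -0.83 in Δ/D329A, a difference of 0.11, and in quintile 2 the difference was also 0.11. In quintile 3 the genotypes overlapped. In quintile 4 Δ/D329A was lower by 0.06 on the log2 scale, and in the top quintile the level was 0.70 in +/+ and 0.60 in Δ/D329A, a difference of -0.10. The groups did not overlap in these 4 quintiles (exact permutation test, p = 0.1 for each), and in input they overlapped in every quintile.

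**Figure D1:**
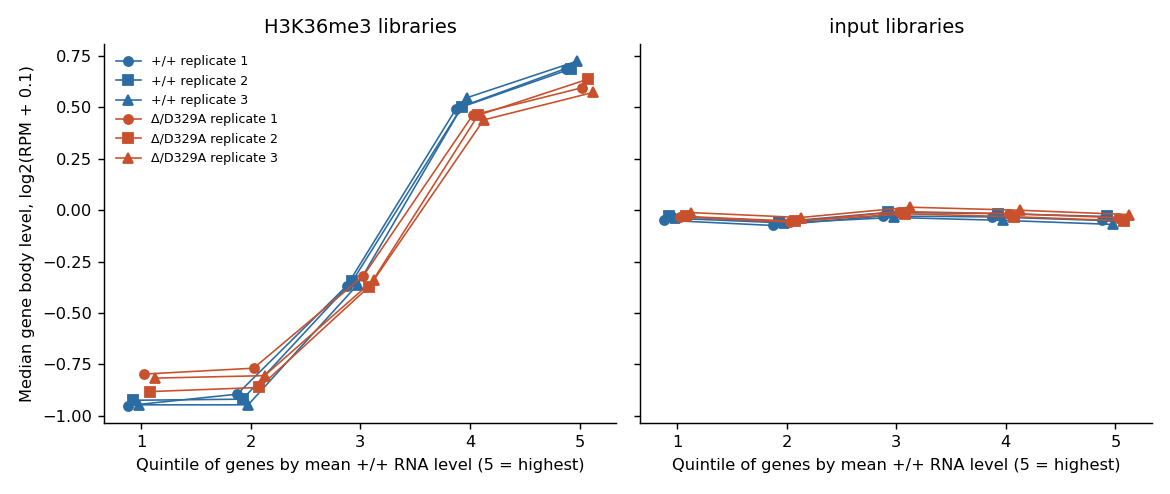
Median H3K36me3 (left) and input (right) level of gene bodies, log2(RPM + 0.1), in each quintile of genes by mean +/+ RNA level from lowest to highest, with the 3 +/+ and 3 Δ/D329A libraries as points. For H3K36me3 in the bottom quintile the mean is -0.94 in +/+ and -0.83 in Δ/D329A, and in the top quintile 0.70 and 0.60.

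The share of the autosomal signal that lay in genes was lower as well. It was 56.0%, 56.0% and 57.4% in +/+ and 54.3%, 55.0% and 54.1% in Δ/D329A. All 3 Δ/D329A libraries were below the 3 +/+ libraries, and the difference of the means was -2.02 percentage points (exact permutation test, p = 0.1). Tiles in genes had a mean of 1.03 RPM in +/+ and 0.99 RPM in Δ/D329A, without overlap. Tiles outside genes had 0.521 and 0.539 RPM, with overlap between the genotypes (exact permutation test, p = 0.2). In input the share in genes was 41.9% in +/+ and 42.1% in Δ/D329A, also with overlap. Since values are scaled to the reads of each library, a share that is lower in genes is higher elsewhere by construction, and a difference in the total amount of the mark cannot be seen in these data.

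The range of levels across the genome was narrower. The SD of the log2 level over tested tiles was 0.807, 0.815 and 0.837 in +/+ and 0.771, 0.783 and 0.766 in Δ/D329A (exact permutation test, p = 0.1). When tiles were ordered by their mean level over all 6 libraries, the top decile was lower in Δ/D329A by 0.11 on the log2 scale, the bottom decile was higher by 0.07 and decile 2 was higher by 0.06. These 3 deciles were without overlap, and deciles 3 to 9 overlapped.

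Along transcribed genes the lower level covered nearly the whole body. In 5850 genes of 20 kb or longer in the top 2 quintiles of expression, the median log2 level of the first decile of the body was -0.51, -0.49 and -0.50 in +/+ and -0.55, -0.50 and -0.48 in Δ/D329A, with overlap. From decile 2 to the last decile all Δ/D329A libraries were lower than all +/+ libraries, with differences from -0.07 to -0.11. The last decile stood at 0.99, 1.02 and 1.04 in +/+ and at 0.93, 0.95 and 0.88 in Δ/D329A. In 1558 genes of the same length in the bottom quintile of expression, Δ/D329A was higher without overlap in deciles 1 to 9 of the body.

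The increase along expressed long genes, the last decile minus the first decile, was 1.44, 1.43 and 1.47 in +/+ and 1.43, 1.36 and 1.30 in Δ/D329A. The groups did not overlap, but Δ/D329A replicate 1 lay within 0.01 of +/+ replicate 2. The difference of the means was -0.08 (exact permutation test, p = 0.1). By rank of mitochondrial reads in their H3K27me3 and H3K4me3 libraries the animals were split into a set of lower and a set of higher coverage. The other libraries did not follow this split. In input +/+ replicate 1, of the lower set, had the highest coverage (83.0 RPM). In H3K36me3 +/+ replicate 2, of the lower set, had 9.465 RPM and +/+ replicate 3, of the higher set, 7.592 RPM. The difference in the increase along genes was -0.0067 in the lower set (+/+ replicates 1 and 2, Δ/D329A replicate 1) and -0.13 in the higher set (the other 3 animals). For the distance between expression quintiles the differences within the same sets were -0.23 and -0.22, and for the share in genes -1.73 and -2.86 percentage points.

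**Figure D2:**
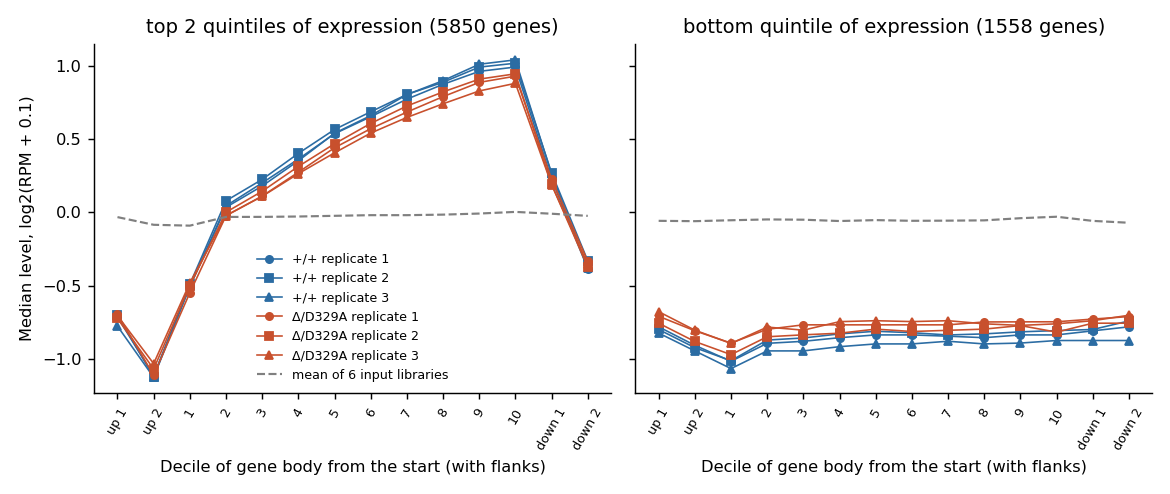
Median H3K36me3 level, log2(RPM + 0.1), in deciles of the gene body in the direction of transcription and in the flanking bins, for genes of 20 kb or longer, with 1 line per library and the mean of the 6 input libraries dashed. Over 5850 expressed genes the Δ/D329A lines lie below the +/+ lines from decile 2 on, by 0.07 to 0.11, and over 1558 genes of the bottom quintile they lie above them in deciles 1 to 9.

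Gene length and H3K27me3 ordered the difference in the same manner. Gene bodies under 5 kb were higher in Δ/D329A by 0.11 on the log2 scale (6871 genes), bodies of 20 to 100 kb were lower by 0.06 and those over 100 kb were lower by 0.05, each without overlap, and bodies of 5 to 20 kb overlapped. Tiles with the most H3K27me3 in +/+ (the top decile, 229934 tiles) had a mean log2 H3K36me3 level of -0.84, -0.81 and -0.85 in +/+ and -0.67, -0.76 and -0.69 in Δ/D329A. All 3 Δ/D329A libraries were higher, by 0.13 on average, while input in the same tiles was higher by 0.02, also without overlap. In the decile with the least H3K27me3, H3K36me3 was lower in Δ/D329A by 0.09.

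The gene quintiles and tile deciles share reads with each other and describe 1 pattern in the same 6 libraries. In bulk tissue, fewer cells of a type and less of a mark per cell cannot be told apart. Background in the immunoprecipitation was not measured. A difference in it between libraries cannot be told apart from one in the mark, here or in the canyons below. Median levels of H3K27me3 over gene bodies in expression quintile 4 and the top quintile were also lower in Δ/D329A without overlap, by 0.18 and 0.21 on the log2 scale, while H3K4me3 overlapped in each quintile.

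For single gene bodies no difference passed limma at an adjusted p under 0.05 (0 of 24251, 0%). At an unadjusted p under 0.05, 1123 gene bodies were higher in Δ/D329A (4.63%) and 2481 were lower (10.2%). The values of the genotypes did not overlap in 1768 gene bodies that were higher (7.29%) and 3511 that were lower (14.5%). On whole reads, edgeR's quasi-likelihood test gave 103 gene bodies higher (0.447% of 23021) and 40 lower (0.174%), and DESeq2 gave 23 higher and 96 lower, so the tools differed in the direction of most calls. With an offset in edgeR that follows the level of each gene, 120 were higher (0.521%) and 21 lower (0.0912%), and 94 genes were called by both edgeR fits.

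Onecut1, Onecut2, Wt1 and Pmaip1 were among the 5 gene bodies of 5 kb or longer with the smallest p for a higher level in Δ/D329A. Onecut1 and Onecut2 encode transcription factors of early neural and hepatic development. Onecut1 had 0.378, 0.439 and 0.400 RPM in +/+ and 0.864, 0.705 and 0.815 RPM in Δ/D329A (log2 difference 0.82). Onecut2 had 0.885 ± 0.059 RPM in +/+ and 1.33 ± 0.088 RPM in Δ/D329A (SD, n = 3 each, log2 difference 0.54). Wt1, a regulator of kidney and gonad development, had 0.522, 0.490 and 0.476 RPM in +/+ and 0.955, 0.763 and 0.891 RPM in Δ/D329A (0.70). Pmaip1, which encodes the pro-apoptotic protein NOXA, differed by 0.57. None of the 4 overlapped between genotypes, which was a condition of their choice. Each had an adjusted p of 0.256 in limma, and all 4 were called higher by edgeR.

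Ccnd2, which encodes the cell cycle regulator cyclin D2, had the smallest p of gene bodies of 5 kb or longer in the other direction. Its level was 1.31, 1.10 and 1.10 RPM in +/+ and 0.659, 0.510 and 0.539 RPM in Δ/D329A. Each Δ/D329A animal was well below each +/+ animal (log2 difference -0.92 ± 0.11 SE, adjusted p 0.256 in limma and 8.77e-06 in edgeR). Over the 20 settings its adjusted p lay between 8.77e-06 and 0.528 and passed in 2. Arrdc3, an arrestin-like adaptor, had 2.28, 2.38 and 2.50 RPM in +/+ and 1.63, 1.75 and 1.82 RPM in Δ/D329A (-0.44). Srsf7, a splicing factor, had 2.27, 2.28 and 2.30 RPM in +/+ and 1.57, 1.72 and 1.75 RPM in Δ/D329A (-0.42). Fbxo3, a component of ubiquitin ligases, had 2.36, 2.39 and 2.35 RPM in +/+ and 1.87, 1.89 and 1.88 RPM in Δ/D329A (-0.32). The predicted gene Gm14966 differed by -0.51. The absence of overlap was a condition of choice for these 5 genes too. They had an adjusted p of 0.256 in limma, and of these edgeR called Ccnd2, Arrdc3 and Fbxo3 but not Srsf7 or Gm14966.

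**Figure D3:**
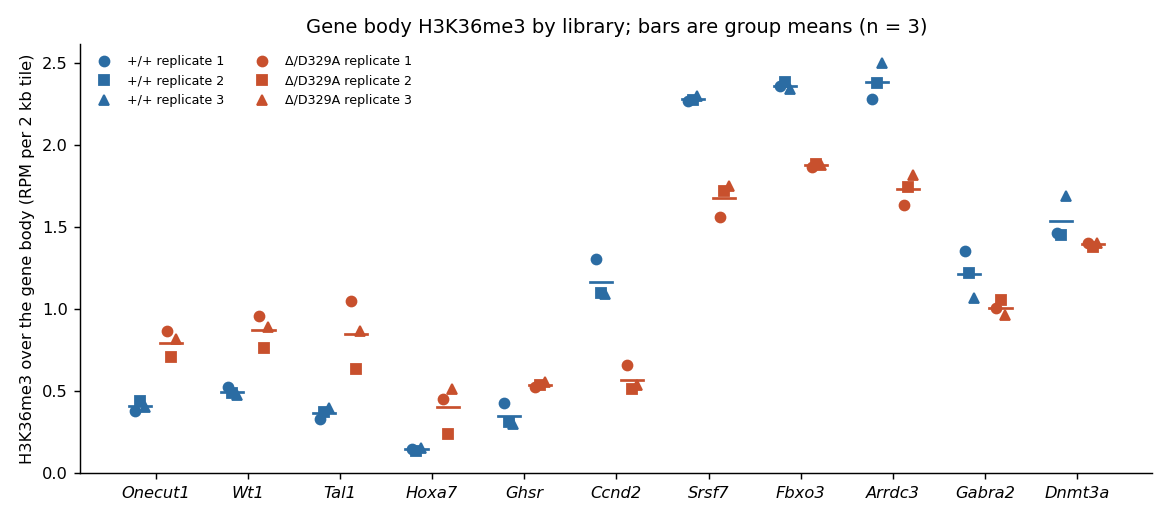
H3K36me3 level in RPM over 11 gene bodies described in the text, with the 3 +/+ and 3 Δ/D329A libraries as points and bars at the group means. The genotypes do not overlap in any of them. For Onecut1, Wt1, Ccnd2, Srsf7, Fbxo3 and Arrdc3 this was a condition of choice. Genes that overlap, such as Pou4f1 and Hoxd8, are not shown. Onecut1 stands at 0.378 to 0.439 RPM in +/+ and 0.705 to 0.864 RPM in Δ/D329A, and Ccnd2 at 1.10 to 1.31 and 0.510 to 0.659.

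The genes called by edgeR in the 2 directions were of different kinds. Those called higher had a median +/+ RNA level of -4.02 log2 RPKM, 91 of 103 (88.3%) were below 0 log2 RPKM against 53.3% of all gene bodies tested, and 45 (43.7%) overlapped a canyon against 3.74% of all. Their median H3K36me3 level was 0.324 RPM in +/+ and 0.56 RPM in Δ/D329A. Those called lower were expressed, with a median of 2.74 log2 RPKM, and 1 of the 40 was below 0 log2 RPKM. Their median level was 1.82 RPM in +/+ and 1.48 RPM in Δ/D329A, and 7 (17.5%) overlapped a canyon. The shares that overlap a canyon were not matched for gene length. The median length was 21200 bp in genes called higher, 59600 bp in those called lower and 14800 bp over all tested.

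Hox genes, which specify position along the body axis and are silent in forebrain, nearly all had a positive difference. Of 39 Hox genes in the table, 38 were tested, and the genotypes did not overlap in 26, all higher, beside 7.29% of all gene bodies. With the gene below the minimum level included, 37 had a positive and 2 a negative difference (without the minimum, 7.21% of all gene bodies were higher and 14.0% lower without overlap). An unadjusted limma p under 0.05 was found for 21, all higher, beside 4.63% of all gene bodies, and none passed adjustment. EdgeR called 8 higher, beside 0.447% of all gene bodies. The median log2 difference was 0.64, beside -0.02 over all gene bodies. Hoxa10 had 0.131, 0.153 and 0.122 RPM in +/+ and 0.509, 0.311 and 0.443 RPM in Δ/D329A. Hoxc11 had 0.058, 0.079 and 0.087 RPM in +/+ and 0.292, 0.262 and 0.227 RPM in Δ/D329A. These levels remained below the median of all gene bodies in each genotype, 0.735 RPM in +/+ and 0.752 RPM in Δ/D329A. Neighbouring Hox genes overlap or lie within a few kilobases, so their tiles are partly shared.

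Other developmental transcription factors that are silent in hypothalamus also had a positive median difference. Among 22 such genes 12 were higher without overlap, beside 7.29% of all gene bodies, and Snai2 alone was lower without overlap, beside 14.5%, at 0.273, 0.344 and 0.275 RPM in +/+ and 0.207, 0.246 and 0.197 RPM in Δ/D329A. The median log2 difference was 0.40. EdgeR called 7 of them higher, beside 0.447% of all gene bodies, and these were the paired box genes Pax1, Pax3 and Pax9, the GATA factors Gata4 and Gata6 and the T-box genes Tbx5 and Tbx15. Pax9 had 0.215, 0.158 and 0.229 RPM in +/+ and 0.478, 0.309 and 0.462 RPM in Δ/D329A. Tbx5 had 0.316, 0.297 and 0.268 RPM in +/+ and 0.447, 0.404 and 0.465 RPM in Δ/D329A.

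Transcription factors of the hypothalamus itself were not an exception. Of 11 tested, 7 were higher without overlap (7.29% of all gene bodies) and none was lower (14.5% of all), with a median difference of 0.52, and edgeR called Six3, Otp, Lhx8 and Lhx6 higher (0.447% of all). Six3, required for forebrain development, had 0.199, 0.219 and 0.334 RPM in +/+ and 0.484, 0.502 and 0.531 RPM in Δ/D329A. Otp, which specifies neuroendocrine neurons, had 0.241, 0.160 and 0.321 RPM in +/+ and 0.499, 0.418 and 0.453 RPM in Δ/D329A. Nkx2-1 and Sim1 overlapped between genotypes. Among 1033 olfactory receptor genes, which are silent in brain and lie outside CpG-rich regions, 101 were higher and 27 lower without overlap, and the median difference was 0.14. The share that was higher is near the 7.29% of all gene bodies, and the share that was lower is below 14.5%.

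Zinc finger genes, among them 7 of the 10 gene bodies of highest level, had a negative median difference. Of 340 zinc finger genes with Zfp symbols, 5 were higher and 80 lower without overlap, beside 14.5% lower over all gene bodies, with a median difference of -0.10. The zinc finger genes were not matched for level with all gene bodies. Many of these genes are clustered and similar in sequence, so reads could be assigned to a related copy. Of 85 ribosomal protein genes 1 was higher and 13 lower (median -0.09), and of 81 genes of the respiratory chain 3 were higher and 13 lower (-0.07). The shares that were lower in these 2 groups are near the 14.5% of all gene bodies. Sfi1 had a positive difference among the 10 highest gene bodies. It had 8.59, 8.36 and 9.17 RPM in +/+ and 10.3, 9.46 and 10.3 RPM in Δ/D329A (0.20, adjusted p 0.290 in limma, 0.0367 in edgeR and 0.0152 in edgeR with the offset that follows level), and its input, above, exceeded these levels. The other 9 had differences from -0.17 to -0.04, without overlap in Zfp606, Zfp2 and Zfp105.

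Genes of H3K36 methyltransferases had negative differences on their own bodies. This held for all 9, of which 6 were lower without overlap, beside 14.5% of all gene bodies, and the median was -0.18. Setd2 had 1.96, 1.97 and 1.86 RPM in +/+ and 1.45, 1.76 and 1.69 RPM in Δ/D329A. Whsc1 had 2.03, 2.03 and 1.96 RPM in +/+ and 1.71, 1.83 and 1.65 RPM in Δ/D329A. None passed adjustment, and the RNA level was higher in 4 of the 9 and lower in 5. Of 8 demethylase genes measured out of 11 symbols, 4 were lower without overlap, and of 17 genes of readers and partners of the mark out of 19, 8 were lower without overlap, also beside 14.5%. None of the genes in these 3 lists was higher without overlap. The 14.5% covers silent genes as well, and the lists were not matched for level. The median level of the top quintile of expression also differed, by -0.10 on the log2 scale. Of 9 genes for DNA methylation and demethylation enzymes 2 were lower without overlap, among them Dnmt3a, a share near that of all gene bodies. Very long synaptic genes, which are expressed but carry low levels per tile, had small differences: all 18 were negative, none was without overlap, and the median was -0.05.

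Dnmt3a, the mutated gene (chr12:3806007-3914443), had 1.47, 1.45 and 1.69 RPM in +/+ and 1.41, 1.38 and 1.41 RPM in Δ/D329A. The Δ/D329A libraries lay just below the +/+ libraries (log2 difference -0.13, adjusted p 0.430 in limma). Neither allele could be checked from these values, because the average over a gene body shows neither a point mutation nor the loss of 1 exon. In the RNA-seq libraries of the series, of which 5 were +/+ and 4 were Δ/D329A, the mean RNA level of Dnmt3a was 1.91 and 1.64 log2 RPKM.

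Markers of cell types were examined because a shift in cell composition moves a gene-body mark. All 5 oligodendrocyte markers examined had a negative difference, whereas 45.5% of all gene bodies tested had a positive one. Only 1 of the 5 was lower without overlap, beside 14.5% of all gene bodies. Their summed level was 5.34 to 6.56 RPM in +/+ and 4.63 to 5.33 RPM in Δ/D329A. Mag, a glycoprotein of myelin, had 0.659, 0.812 and 0.673 RPM in +/+ and 0.532, 0.619 and 0.570 RPM in Δ/D329A (-0.27, adjusted p 0.307 in limma). The RNA level was lower in 4 of the 5 markers. The summed level of 6 neuronal markers was at least 7.37 RPM in +/+ and at most 7.0 RPM in Δ/D329A. Summed levels of astrocyte, microglia, oligodendrocyte precursor, endothelial, tanycyte and choroid plexus markers overlapped between genotypes. Those of 6 anterior pituitary markers were 2.30 to 2.93 RPM and 3.05 to 3.42 RPM. The 4 cortical and striatal markers, which include Tbr1, had summed levels of 1.10 to 1.19 RPM and 1.36 to 1.80 RPM. Of these 4, 2 were higher and 1 was lower without overlap, beside 7.29% and 14.5% of all gene bodies. The 5 thalamic markers had 3.43 to 3.45 RPM and 3.45 to 4.49 RPM, and the 16 neuropeptide genes overlapped. No marker was at 0 in all libraries, and the part of cell composition in the differences was not tested.

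Among genes that the study names for a difference in expression, the mark and the RNA differed in the same direction in some and not in others. These genes were chosen on the RNA-seq libraries of this series, so their RNA levels are a description. The RNA came from other libraries than the ChIP-seq. The study describes the RNA-seq hypothalamus as female in a supplementary figure legend, and as male together with the ChIP-seq in a main figure legend. A difference between mark and RNA cannot be told apart from one between sets of animals, which may also differ in sex. Tal1, a regulator of blood cell development that is also used in midbrain neurons, had 0.330, 0.373 and 0.398 RPM of H3K36me3 in +/+ and 1.05, 0.636 and 0.864 RPM in Δ/D329A, without overlap (log2 difference 1.0, adjusted p 0.256 in limma). Its mean RNA level was -2.76 log2 RPKM in +/+ and 0.56 in Δ/D329A. For Wt1, described above, the RNA level was -6.54 and -0.82 log2 RPKM. Hoxa7 had 0.144, 0.135 and 0.150 RPM of H3K36me3 in +/+ and 0.452, 0.239 and 0.510 RPM in Δ/D329A, with RNA at -5.66 and -0.82 log2 RPKM.

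Pou4f1, a transcription factor of sensory and habenular neurons, was less clear. It had 0.123, 0.123 and 0.303 RPM in +/+ and 0.506, 0.226 and 0.819 RPM in Δ/D329A, so that Δ/D329A replicate 2 lay below +/+ replicate 3 (log2 difference 1.06, adjusted p 0.306 in limma), while RNA was at -5.39 and -0.11 log2 RPKM. Lhx4 had 0.241 to 0.292 RPM and 0.317 to 0.414 RPM, without overlap, with RNA at -6.57 and -1.46 log2 RPKM. In several genes with much more RNA in Δ/D329A the mark overlapped between genotypes. Gpnmb, a glycoprotein of phagocytes and pigment cells, had 0.340, 0.345 and 0.309 RPM and 0.440, 0.248 and 0.377 RPM, with RNA at -3.23 and 0.93 log2 RPKM. Lect1 (0.08), Matn1 (0.35), Tuba1c (0.35) and Hoxd8 (0.03) also overlapped, the log2 difference of H3K36me3 standing after each.

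The receptor genes with less RNA in Δ/D329A differed from one another. Gabra2, a GABA receptor subunit, had 1.36, 1.22 and 1.07 RPM in +/+ and 1.01, 1.06 and 0.963 RPM in Δ/D329A, with all Δ/D329A libraries just below the lowest +/+ library (log2 difference -0.24) and RNA at 3.67 and 2.42 log2 RPKM. Ghsr, the ghrelin receptor, went the other way, with 0.425, 0.312 and 0.299 RPM in +/+ and 0.522, 0.534 and 0.555 RPM in Δ/D329A (0.53), while its RNA was at -0.07 and -1.09 log2 RPKM. Abca8a was lower in both (-0.24 for the mark, without overlap). Bdnf, Sirt1, Cartpt, Mndal, Nr2e1, Rln1, Chchd7 and Lhx9 overlapped between genotypes in H3K36me3. Across 10027 expressed genes of 5 kb or longer, the RNA difference and the H3K36me3 difference had a Pearson r of 0.342 and a Spearman rho of 0.370. This is across genes, which are not independent replicates, and across sets of animals that may differ in sex. The median H3K36me3 difference was -0.14 in the quintile of genes with the lowest RNA difference and -0.02 in the quintile with the highest.

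At the scale of 2-kb tiles, 67 of 2167295 passed limma at an adjusted p under 0.05. Of these, 42 were higher in Δ/D329A (0.00194%) and 25 were lower (0.00115%), and edgeR called all 67 among its 149 (108 higher, 0.00498%, and 41 lower, 0.00189%). The genotypes did not overlap in 5.96% of tiles that were higher and 5.38% that were lower. They formed 47 runs and 29 regions when runs within 200 kb were joined. Of the 67 tiles 43 overlapped a gene, and 4 overlapped a canyon, all 4 of them higher. The shares of all tested tiles that overlap a gene or a canyon were not counted, so these counts show no preference. The number depended on single animals: it was 3 without +/+ replicate 1, 1 without Δ/D329A replicate 3 and 104 without +/+ replicate 3. With median centring of the libraries the split was 27 higher and 26 lower, and with quantile normalization 57 and 11, and without Δ/D329A replicate 2 it was 21 and 50.

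**Figure D4:**
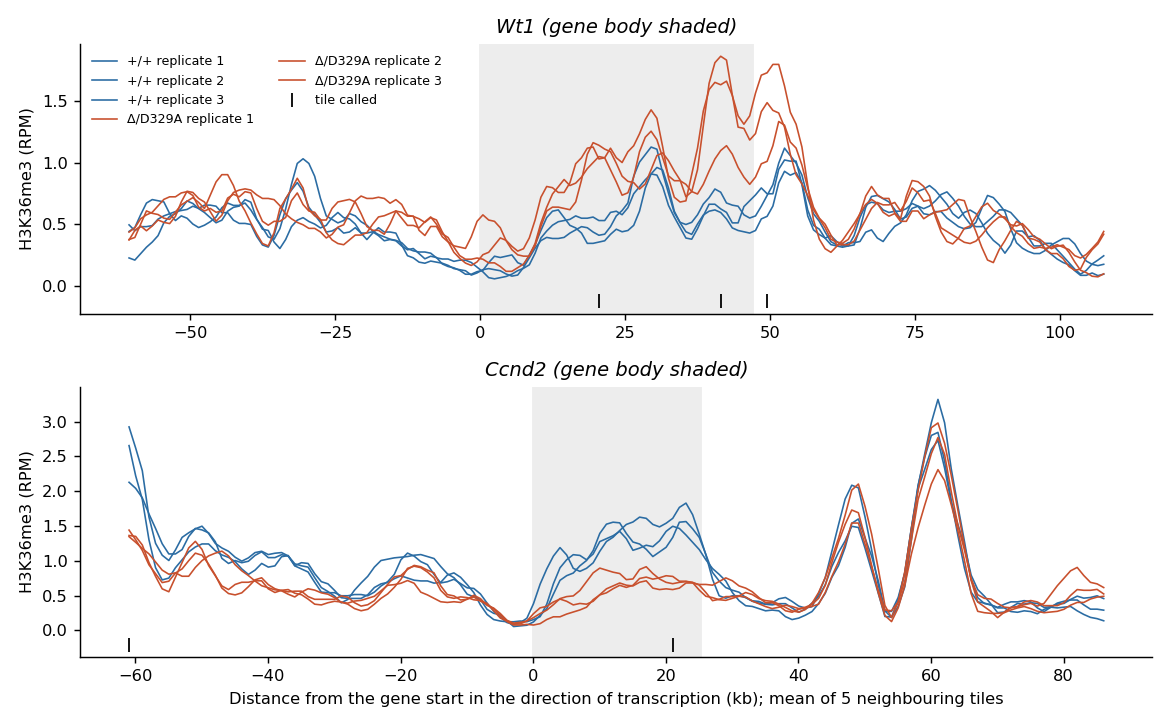
H3K36me3 level in RPM along Wt1 and Ccnd2 as a running mean of 5 neighbouring tiles, by distance from the start of the gene in kb, with 1 line per library (+/+ blue, Δ/D329A red), the gene body shaded and called tiles ticked. Over the called tiles of Wt1 the Δ/D329A libraries lie above the +/+ libraries (means over the body of 0.763 to 0.955 RPM against 0.476 to 0.522), with overlap near its start, and over most of Ccnd2 they lie below them.

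Among the regions called higher outside chromosome 12, Tal1 held a run of 3 tiles (chr4:115066001-115070000) with 0.438, 0.553 and 0.558 RPM in +/+ and 2.27, 1.26 and 1.61 RPM in Δ/D329A. Wt1 held 2 called tiles. At chr2:105167001-105169000 in this gene the level was 0.744, 0.806 and 0.523 RPM in +/+ and 1.85, 1.38 and 2.41 RPM in Δ/D329A. The 2 tiles at chr9:74864001-74867000 in Onecut1 had 0.153, 0.119 and 0.131 RPM in +/+ and 1.41, 0.393 and 1.08 RPM in Δ/D329A. Tbx20, a cardiac T-box gene, had 0.109, 0.166 and 0.236 RPM in +/+ and 0.998, 0.786 and 0.840 RPM in Δ/D329A at chr9:24767001-24770000. Single tiles or short runs were also higher in Tbx2, Tbx15, Hoxa10, Gm15494, 4933436C20Rik and Cdkn2b, which encodes a cell cycle inhibitor, and near Hand2, Mnx1 and Hoxc4. In all of the runs named with values the genotypes were apart, and Δ/D329A replicate 2 was the lowest of the 3 mutants at Tal1, Wt1, Onecut1 and Tbx20.

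Most regions called lower overlapped a gene, though the share of all tested tiles that do so was not counted. In the Gria2 tile printed above (chr3:80697001-80699000), in a gene for an AMPA receptor subunit, the level was 2.58, 2.61 and 2.67 RPM in +/+ and 1.02, 1.33 and 0.892 RPM in Δ/D329A (adjusted p 0.00646 in limma). In Ccnd2 (chr6:127129001-127131000) it was 1.58, 1.42 and 1.52 RPM in +/+ and 0.438, 0.590 and 0.472 RPM in Δ/D329A. Car2, which encodes a carbonic anhydrase that is abundant in oligodendrocytes, had 3.85, 4.36 and 3.45 RPM in +/+ and 1.95, 2.70 and 1.52 RPM in Δ/D329A. Scn2a1, a sodium channel gene, had 3.90, 4.17 and 3.66 RPM in +/+ and 1.80, 2.06 and 2.47 RPM in Δ/D329A. Zmym2, Lpin1, Gca, Rbm26, Adamts1, Dgkb and a tile shared by Fgfr2 and Plekha1 also held called tiles, and 1 more lay near Tmx3.

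A block on chromosome 12, from 19865001 to 20916000 on the chromosome that also carries Dnmt3a, held 20 of the 67 tiles. The 11 tiles called lower lay outside genes. At chr12:20240001-20244000 the level was 2.70, 2.58 and 2.11 RPM in +/+ and 1.10, 0.770 and 0.630 RPM in Δ/D329A, but input there was 0.929, 1.02 and 0.949 RPM in +/+ and 0.817, 0.498 and 0.584 RPM in Δ/D329A, also without overlap. The 9 tiles called higher lay in and around Zfp125. At chr12:20874001-20878000 the level was 0.365, 2.20 and 1.90 RPM in +/+ and 2.27, 3.83 and 3.85 RPM in Δ/D329A, so +/+ replicate 1 stood apart from the other 2 +/+ animals and Δ/D329A replicate 1 was close to them. The part of linkage to Dnmt3a or of repeated sequence in this block was not tested. Without chromosome 12, 22 tiles were called higher and 9 lower.

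Tiles called higher were richer in CG dinucleotides than other tiles. The median was 21.5 per tile, 24 outside the chromosome 12 block, against 14 in all tested tiles and 14 in the tiles called lower. Of the 42 tiles called higher 11 (26.2%) had 40 or more CG dinucleotides, as had 1 of the 25 called lower (4%) and 2.68% of all tested tiles. Over all 5281 tested tiles with 80 or more CG dinucleotides the median log2 difference was 0.14, and in the classes with fewer it was between -0.001 and 0.026. The CG-richest tiles also had the lowest levels, with a median of 0.354 RPM against 0.632 RPM in tiles with 10 to 19, so CG content and low level cannot be told apart here.

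Canyons were higher in Δ/D329A on the scale of mapped reads. Fits scaled on canyons alone cannot show a shift that canyons share. The median H3K36me3 level over 779 canyons was 0.153, 0.154 and 0.184 RPM in +/+ and 0.214, 0.221 and 0.289 RPM in Δ/D329A. Each Δ/D329A library was above each +/+ library (exact permutation test, p = 0.1). Median input over canyons was 0.713 RPM in +/+ and 0.759 RPM in Δ/D329A and overlapped, as did H3K27me3 and H3K4me3. The log2 difference was positive in 609 of 779 canyons (78.2%), with a median of 0.26, against 45.5% of gene bodies. This median was -0.11 with median centring, -0.02 with quantile normalization and 0.02 in edgeR. These 3 were scaled on canyons alone, which removes a shared shift, so they cannot decide the direction. The median was 0.19 as a ratio to input and 0.10 when canyons were quantile normalized with gene bodies. In edgeR with the offset fitted over gene bodies and canyons it was 0.27. Gene bodies of similarly low level were also shifted: among 2257 gene bodies under 0.290 RPM, the third quartile of canyons, 69.3% were positive with a median of 0.13.

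In limma 9 canyons were called, all higher in Δ/D329A (1.16%), and the genotypes did not overlap in 186 that were higher (23.9%) and 13 that were lower (1.67%). The number again depended on single animals. It was 0 without +/+ replicate 1 or +/+ replicate 3, 1 without +/+ replicate 2 or Δ/D329A replicate 3, 2 without Δ/D329A replicate 1 and 29 without Δ/D329A replicate 2. It was 1 after median centring of the canyon values, which removes any shift that canyons share. Under this centring 45 canyons were higher and 81 lower at an unadjusted p under 0.05 in limma, instead of 151 and 4. As a ratio to input 89 were higher and 6 lower. The direction for canyons as a whole is relative to the mapped reads of each library or to gene bodies. EdgeR over canyons alone called 5 higher (0.649%) and 1 lower (0.13%). With canyons and gene bodies quantile normalized together, 5 were called, all higher.

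The 9 lay at or near genes of transcription factors, and how many of all canyons do so was not counted. The canyon in Nr5a2, a nuclear receptor gene of liver and pancreas, had 0.051, 0.087 and 0.035 RPM in +/+ and 0.471, 0.393 and 0.420 RPM in Δ/D329A (log2 difference 1.75 ± 0.25 SE, adjusted p 0.00943 in limma). The Tbx15 canyon printed above had 0.164, 0.154 and 0.157 RPM in +/+ and 0.511, 0.541 and 0.564 RPM in Δ/D329A (1.31, adjusted p 0.00979), and a second canyon that overlaps Tbx15 and Wars2 differed by 1.38. The canyon near Hand2, a regulator of heart and limb development, had 0.190, 0.166 and 0.079 RPM in +/+ and 0.820, 0.418 and 0.586 RPM in Δ/D329A (1.52, adjusted p 0.0203). In the first 2 of these the animals of a genotype lay close together, and near Hand2 the Δ/D329A animals were more spread.

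The other called canyons lay at Pax5, a B cell regulator (1.31), Foxi3, an ectodermal factor (1.24), Pou4f3, a hair cell factor (1.10), Ptf1a, a pancreatic and neural factor (1.08), and Sim1, which specifies hypothalamic neurons (1.0), the log2 difference standing after each. The Sim1 canyon had 0.226, 0.213 and 0.279 RPM in +/+ and 0.528, 0.623 and 0.586 RPM in Δ/D329A, although the whole body of Sim1 overlapped between genotypes (0.634 to 0.760 RPM and 0.674 to 0.704 RPM). Levels in the called canyons rested on few reads, a mean of 0.667 to 6.0 per tile in +/+ and 6.33 to 18.6 in Δ/D329A. The 9 canyons had 24.7 to 42.6 CG dinucleotides per kb, with a median of 31.2 against 47.9 over 762 autosomal canyons.

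**Figure D5:**
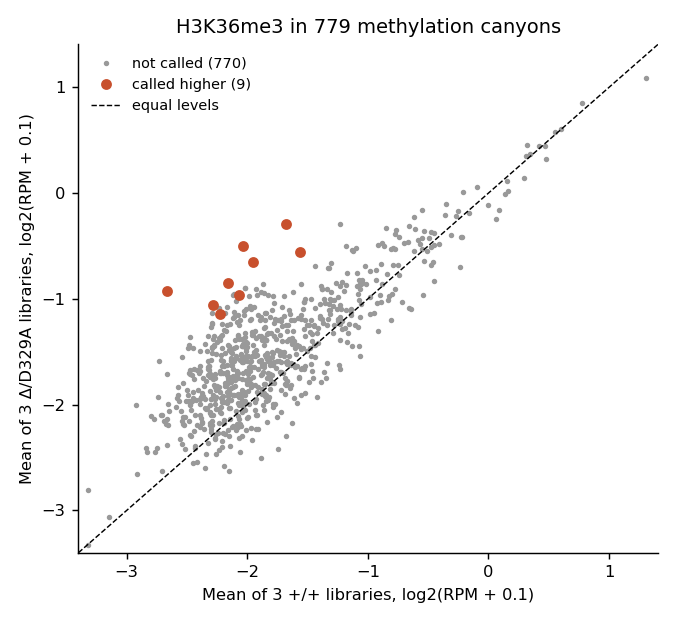
Mean H3K36me3 level of 779 canyons, log2(RPM + 0.1), with the 3 +/+ libraries on the horizontal axis and the 3 Δ/D329A libraries on the vertical axis, the 9 called canyons as larger coloured points and equal levels as a dashed line. Of the canyons 609 lie above the line and 170 below it on this scale. With median centring over canyons alone, which removes a shift they share, the median difference is -0.11.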

How the data were processed

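Ultra-low input native ChIP-seq was performed by the authors on MNase-digested hypothalamus. They trimmed the reads with Trim Galore and mapped them with Bowtie to GRCm38. The submitters' processing notes list Trim Galore 0.4.3, Bowtie2 2.3.2 and HISAT2 2.0.5. The deposited ChIP signal was made by the authors in SeqMonk as reads per tile of 2000 bp scaled to the mapped reads of the library (RPM), without input subtraction. All values were whole reads within 0.01. RNA-seq values were deposited by the authors as log2 RPKM per gene.

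RPM was averaged over tiles centred in a gene body or canyon. The positions of canyons alone were taken from the study's supplementary list. Genotypes were compared with limma 3.58.1 (R 4.3.3, trend on level) on log2(RPM + 0.1), two-sided, with Benjamini-Hochberg adjustment over all gene bodies of at least 0.1 RPM, canyons, or autosomal tiles of at least 0.25 RPM. Neighbouring tiles share reads. EdgeR 4.0.16 (quasi-likelihood, at least 10 reads over the 6 libraries, TMM) and DESeq2 1.42.0 were run on whole reads. Values of 1 per library were compared with exact permutation tests. Scripts were tested on simulated data. The 13 mitochondrial genes were left out, and 58 symbols stood on more than 1 row.

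Named genes were the 5 gene bodies of 5 kb or longer per direction with the smallest p and no overlap between genotypes, the 10 of highest level, the longest runs and smallest p of called tiles, genes the study names, and list members. Some of these are not reported here and were left out of the marker lists. Car2, Scn2a1, Tbx20, Cdkn2b and Pou4f3, and the printed windows, were chosen after their values were seen. The members and lists were chosen with earlier results of these data known.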

Additional observations from a re-analysis of the deposited data

Results flagged for a closer look

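In 46 sets of values of a gene in a genotype that were tested for a sample far from the others, 2 were flagged, and chance flags about 1 in 20 such sets. Both are RNA levels in Δ/D329A (n = 4 libraries). For Tuba1c the lowest library stood at -0.378 log2 RPKM and the next at 2.09. For Gpnmb the lowest library stood at 0.203 log2 RPKM and the next at 1.13. The H3K36me3 groups, with 3 libraries each, were too small for this comparison.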

How the results depend on the processing

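The 10 gene bodies chosen for their smallest p, the 9 called canyons and the 10 tiles of smallest p kept their sign under the alternatives run. So did the library-level values. The gene bodies, canyons and tiles were chosen for a small p in these same libraries. Where the genotypes do not overlap, as in the library-level values, leaving out 1 library cannot reverse the sign. The kept signs are therefore no test. Other named gene bodies did not all keep their sign. Hoxd8 was at 0.03 in limma and -0.12 in edgeR with the offset that follows level, Hjurp at -0.04 and 0.05, and Zfp110 at -0.08 and 0.02. Some medians and counts over groups also changed direction. The median difference over canyons was 0.26 as reported, -0.11 with median centring (45 higher and 81 lower at an unadjusted p under 0.05, against 151 and 4), -0.02 with quantile normalization and 0.02 in edgeR. The last 3 were scaled on canyons alone, which removes a shift that canyons share. The median was 0.19 as a ratio to input, 0.10 when quantile normalized with gene bodies and 0.27 with the edgeR offset fitted over gene bodies and canyons. Gene bodies called were 103 higher and 40 lower in edgeR and 23 and 96 in DESeq2, and tiles called were 42 and 25 as reported and 21 and 50 without Δ/D329A replicate 2. Of gene bodies, 0 were called in the fit as reported and without any 1 library (0 to 0), while edgeR called 143, edgeR with an offset that follows level 141 and DESeq2 119, limma without a filter on level 2 and on genes of 5 kb or longer 1. Canyons called were 9 as reported and 1 with median centring, 1 with quantile normalization, 2 as a ratio to input, 2 with DESeq2, 50 with the edgeR offset fitted over gene bodies and canyons, 5 when quantile normalized with gene bodies, and 0 to 29 without 1 library. Tiles called were 67 as reported and 187 with a pseudocount of 0.5 RPM, 14 with 0.02 RPM, 0 as a ratio to input, 149 with edgeR, 259 without a filter on level, 38 in every second tile, 31 without chromosome 12, 38 with the set of animals by mitochondrial coverage as a block, and 1 to 104 without 1 library. The edgeR offset, the joint quantile normalization, the animal sets and the omission of chromosome 12 were chosen after seeing the data. With the replicate number as a block, 0 gene bodies, 30 canyons and 153 tiles were called and the library-level values kept -0.207, -2.02 and -0.0807 (exact sign-flip test, p = 0.25, the smallest possible). Same-numbered animals correlated at 0.0183, 0.0188 and 0.0412 in their deviations from the group means, so the numbers were not taken as pairs. Within the animal set of higher mitochondrial coverage the share in genes differed by -2.86 points, and the increase along genes differed by -0.00667 in the lower and -0.132 in the higher set. Without 1 library the distance between expression quintiles ranged from -0.250 to -0.185, the share in genes from -2.30 to -1.56 points and the increase along genes from -0.113 to -0.0486. The cause of these dependences was not tested. The depth of 10 to 12 reads per tile limits single tiles and canyons.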
